A study of Rattus norvegicus with 6 samples.

Results

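The YPEL (Yippee-like) genes form a family of 5 in rat, Ypel1 to Ypel5. They are described here in a mast cell line overexpressing the receptor Dectin-1, with and without the beta-glucan curdlan. The members were chosen by name, as every probe set whose annotation gave exactly 1 gene symbol found among the 5. This gave 1 probe set each for Ypel2 (10745994), Ypel3 (10710912), Ypel4 (10837337) and Ypel5 (10888612), so 4 genes of 14506 named on the array. Ypel1 had no such probe set and its level was not analysed here. The family was put forward after results of these arrays were known, a higher Ypel3 signal under R406 among them. Differences of the members that involve the R406 arrays are therefore given as a description, with a standard error (SE) and no p-value. Other gene lists below were also chosen with earlier results of these arrays known, and the p-values printed for their genes are a description only.

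All 6 arrays came from RBL-2H3, a mast cell model line derived from a rat basophilic leukaemia, overexpressing wild-type Dectin-1, a surface receptor for beta-glucans. There were 2 arrays in each of 3 groups: unstimulated controls, cells given curdlan (a beta-glucan that forms particles), and cells pretreated with R406, which inhibits the kinase Syk, before curdlan. Every group, controls included, carried the receptor, no group had R406 without curdlan, and doses and times were not stated in the labels. Nothing in the labels tells whether arrays of 1 group were separate cultures, and the errors therefore cover array-to-array spread that could be technical only. Values are the authors' normalized log2 signals, with array medians between 7.204 and 7.241. Of 13 measured mast cell markers, 10 had mean control signals above these medians, from 11.55 to 13.51, among them the IgE receptor genes Fcer1a (12.81) and Ms4a2 (13.51) and the stem cell factor receptor gene Kit (12.71). The other 3, the tryptase genes Tpsb2 (6.39) and Tpsab1 (6.20) and the serotonin synthesis gene Tph1 (6.41), lay below them. Of the 13, 1 was called with curdlan, 1 between the R406 and curdlan arrays (Tph1 in both), and 0 between the R406 and control arrays. Markers of macrophages and neutrophils, lymphocytes, and fibroblasts and epithelia, 22 in all, were also measured. Mean control signals of Col3a1 (9.42), Col1a1 (8.24), Cd68 (8.18), Col1a2 (7.66) and Krt8 (7.45) lay above the array medians, and those of the others below. Of the 22, 0 were called in any of the 3 comparisons, where a call is a limma adjusted p under 0.05 (Benjamini-Hochberg, all 29214 probe sets). At an unadjusted limma p under 0.05 the count of the 22 was 2 in each comparison. Over all probe sets 1.59%, 7.25% and 2.23% were called for curdlan against control, R406 against curdlan and R406 against control. At the unadjusted threshold 14.4% of all passed for curdlan against control, and this share was not counted for the R406 comparisons. With 13 and 22 genes, nothing is read from these marker counts.

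YPEL proteins are small and conserved across eukaryotes, and each consists largely of 1 zinc-binding Yippee domain. In human cells YPEL3 was described as a gene induced by p53 whose expression stops proliferation and promotes senescence, and YPEL proteins have been located in the nucleus and around the centrosome and mitotic apparatus. YPEL1 to YPEL4 resemble one another closely, while YPEL5 is more distant and, in human cells, belongs to the CTLH ubiquitin ligase complex. Probes of such close relatives can share sequence, and the part of shared probes in the values below was not tested.

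Ypel3, the member linked to growth arrest, had the largest differences of the 4 genes in both comparisons of the R406 arrays. Its signal was 8.48 and 8.53 on the control arrays, 8.45 and 8.40 on the curdlan arrays, and 10.02 and 10.03 on the R406 plus curdlan arrays. Both R406 arrays lay above the other 4 with no overlap, and the arrays within a group differed by at most 0.06. The R406 arrays were 1.60 ± 0.0485 log2 units (SE, 2 arrays per group) above the curdlan arrays, a 3.04-fold difference, and 1.53 ± 0.0485 above the control arrays, a 2.88-fold difference. Of the 29214 probe sets, 11 had a larger positive difference between the R406 and curdlan arrays, and 4 between the R406 and control arrays.

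Ypel5, the distant member, followed the same order. Its signals were 8.29 and 8.26 in control, 8.08 and 8.18 in curdlan, and 9.26 and 9.20 in R406 plus curdlan arrays. Again the R406 arrays were highest without overlap, as were those of Ypel3; over all probe sets 27.7% lay higher without overlap against the curdlan arrays and 25.7% against the control arrays. They exceeded the curdlan arrays by 1.10 ± 0.056, or 2.14-fold, and the control arrays by 0.95 ± 0.056, or 1.94-fold.

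Ypel2, a close relative of Ypel3 whose role is less well known, had signals of 7.10 and 7.14 in control, 6.97 and 6.89 in curdlan, and 7.77 and 7.89 in R406 plus curdlan arrays. The 3 groups did not overlap, with R406 plus curdlan highest and curdlan lowest. The control and curdlan means, 7.12 and 6.93, lay below all array medians, and whether they exceeded background is not known. The R406 arrays exceeded the curdlan arrays by 0.90 ± 0.0631, or 1.87-fold, and the control arrays by 0.71 ± 0.0631, or 1.64-fold.

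Ypel4 was the exception among the measured members. Its signals were 7.26 and 7.20 in control, 7.25 and 7.40 in curdlan, and 7.26 and 7.10 in R406 plus curdlan arrays, so all 3 groups overlapped. The R406 arrays differed from the curdlan arrays by -0.14 ± 0.083 and from the control arrays by -0.05 ± 0.083. The difference from the control arrays was 0.03 without R406 plus curdlan replicate 2, the opposite direction. Whether the Ypel4 signal lay above background is not known, as for Ypel2 in control and curdlan arrays, since no detection call was used.

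**Figure D1:**
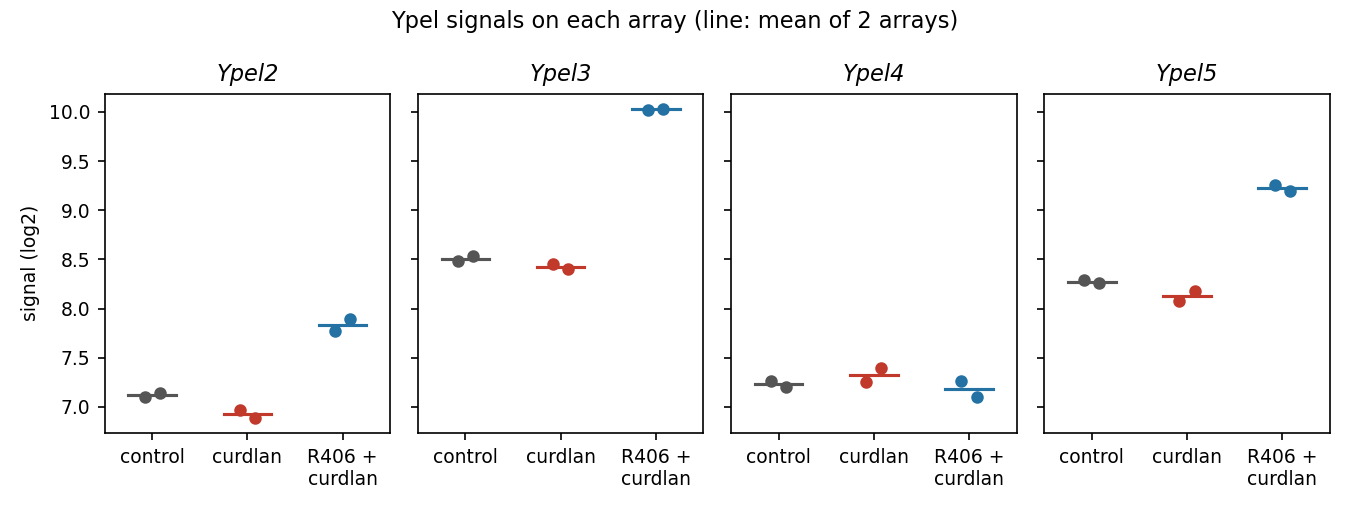
Log2 signal (vertical axis) of each measured Ypel gene on the 6 arrays; points are arrays and lines the means of the 2 arrays of each group. Ypel2, Ypel3 and Ypel5 were highest on both R406 plus curdlan arrays, with means of 7.83, 10.03 and 9.23, while the Ypel4 groups overlapped.

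Curdlan alone asks whether curdlan given to these cells moves the family. Every group carried Dectin-1, so the part of the receptor was not tested. All 4 differences were small: -0.19 ± 0.0631 for Ypel2 (limma, Benjamini-Hochberg adjusted p = 0.278), -0.14 ± 0.056 for Ypel5 (adjusted p = 0.341), -0.08 ± 0.0485 for Ypel3 (adjusted p = 0.554) and 0.09 ± 0.083 for Ypel4 (adjusted p = 0.693). Thus 0 of 4 genes passed the limma test, beside 1.59% of all probe sets, and 2 of 4, Ypel2 and Ypel5, had an unadjusted p under 0.05, beside 14.4% of all. The curdlan arrays of Ypel2, Ypel3 and Ypel5 lay below the control arrays without overlap, by at least 0.13, 0.03 and 0.08, a pattern shown by 23.9% of all probe sets. Control and curdlan were thus the neighbours in the order of levels that did not pass, and a p that misses the threshold does not show that they were alike. The median difference of the 4 genes was -0.11, beside -0.011 over all probe sets.

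Between the R406 and curdlan arrays 3 of 4 genes were called, all higher; the same was seen between the R406 and control arrays. Over all probe sets 4.02% and 1.44% were called higher in these comparisons, and nothing is read from the members' counts, since R406 results were known when the family was chosen. The comparisons share arrays and are not independent of each other. The median difference of the family was 0.999 against curdlan and 0.83 against control, beside -0.002 and -0.010 over all probe sets. In fits without 1 array the count against control was 1, Ypel3 alone, without control replicate 1, control replicate 2, R406 plus curdlan replicate 1 or R406 plus curdlan replicate 2, while the differences in those fits stayed between 0.65 and 0.77 for Ypel2 and between 0.93 and 0.98 for Ypel5. Without a group given R406 alone, a difference that R406 makes by itself and one that needs curdlan cannot be told apart, and in bulk RNA fewer cells of a kind cannot be told apart from less RNA per cell.

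The size of the differences also varied among members, and this variation was not tested. Between the R406 and curdlan arrays the Ypel3 difference exceeded that of Ypel5 by 0.51 ± 0.0741 and that of Ypel4 by 1.75 ± 0.0962, and the Ypel2 difference was below that of Ypel5 by -0.20 ± 0.0844. These errors combine the SEs of both probe sets as if independent, although both were measured on the same arrays. A difference between probe sets may also include unequal probe response.

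**Figure D2:**
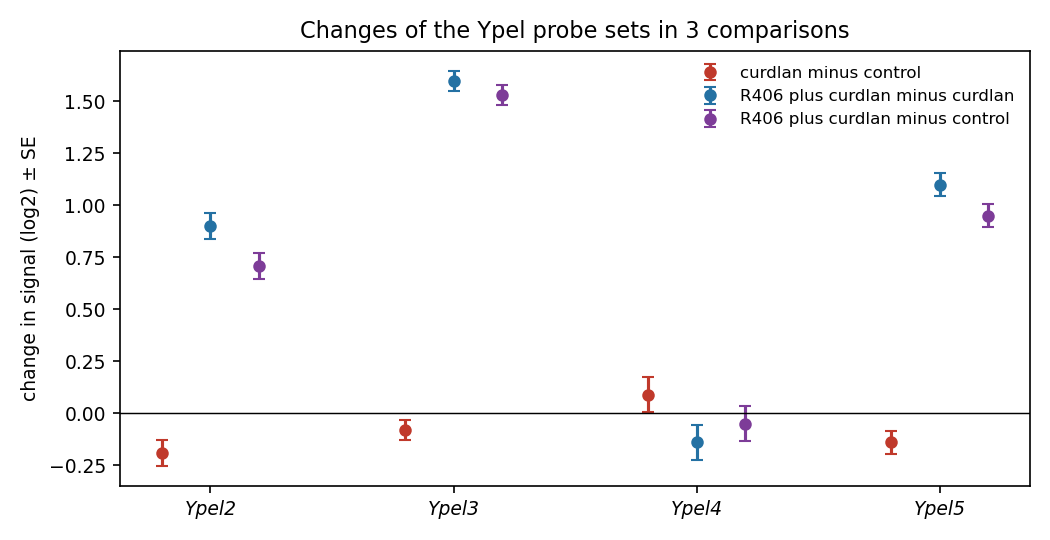
Difference of group means in log2 signal (vertical axis) for each measured member in the 3 comparisons; bars are ± 1 SE from the fit of all 6 arrays. Against the curdlan arrays the R406 arrays were 1.60, 1.10 and 0.90 higher for Ypel3, Ypel5 and Ypel2, and curdlan against control lay between -0.19 and 0.09.

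The genes do not lie together in the genome. In the RefSeq annotation of the rat assembly GRCr8, Ypel1 lies at chr11:97426012-97440646, Ypel2 at chr10:72243591-72301124, Ypel3 at chr1:190814920-190818248, Ypel4 at chr3:90222060-90227395 and Ypel5 at chr6:28408079-28423536. Because Ypel2, Ypel3 and Ypel5 were high on the same arrays, their promoters are shown, as the 200 bases from 250 to 51 bases before the RefSeq start, read 5′ to 3′ on the gene's strand. For Ypel3 and Ypel5, and for Ypel1 and Ypel4 whose windows are searched below, that start lies inside the span of the gene given above. Capitals mark CCAAT boxes (CCAAT, or ATTGG on the other strand) and GC boxes (GGGCGG, or CCGCCC on the other strand), common promoter elements. The stretches lie at chr1:190814706-190814905 on the plus strand for Ypel3, chr6:28423537-28423736 on the minus strand for Ypel5 and chr10:72301175-72301374 on the minus strand for Ypel2.
Ypel3: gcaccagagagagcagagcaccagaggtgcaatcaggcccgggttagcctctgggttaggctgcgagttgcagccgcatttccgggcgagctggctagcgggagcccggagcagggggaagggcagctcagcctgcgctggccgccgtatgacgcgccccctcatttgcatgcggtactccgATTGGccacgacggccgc
Ypel5: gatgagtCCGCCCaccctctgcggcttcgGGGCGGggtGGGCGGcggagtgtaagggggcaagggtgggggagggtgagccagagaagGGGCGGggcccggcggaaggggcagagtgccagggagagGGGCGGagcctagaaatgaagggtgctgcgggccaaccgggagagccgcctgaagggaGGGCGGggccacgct
Ypel2: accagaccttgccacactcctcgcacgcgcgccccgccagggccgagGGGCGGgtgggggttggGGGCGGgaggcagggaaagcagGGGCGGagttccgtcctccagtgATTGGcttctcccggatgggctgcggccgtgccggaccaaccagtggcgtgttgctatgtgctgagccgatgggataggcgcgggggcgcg
Over the whole window of 300 bases, 250 before and 50 after the start, 6 motifs were searched on both strands, and they were chosen after the sequences were seen. A CCAAT box was in the windows of Ypel1, Ypel2 and Ypel3, and in 37.5% of 33469 windows of this length. A GC box was in those of Ypel1, Ypel2 and Ypel5, with 6 matches in Ypel5, and in 33.1% of all. The GC content was 71.0%, 70.7% and 71.0% for Ypel2, Ypel3 and Ypel5, 73.3% for Ypel1 and 59.3% for Ypel4, beside a median of 51.7%. The part of GC content in the GC box matches was not tested. The window of Ypel4, which opens at chr3:90222612 inside the span of the gene, held none of the 6 motifs.

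The FOXO motif GTAAACA, bound by the forkhead factors of the insulin pathway, was in 3.78% of all windows and in 1 of the 5 of the family, that of Ypel3. Its first base is base 12, counted from 1 at the start, and it lies at chr1:190814959-190814981 with its flanks, motif in capitals.
Ypel3: gtctcggtGTAAACAagtcgagg
The E-box (CACGTG, 6.42% of windows), the cyclic AMP response element (TGACGTCA, 1.83%) and the ATF4-type element (TGATGNAA, 3.98%) were in none of the 5. A match is a run of letters and not a measured binding site, and a missing one says only that these letters are not in this window.

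The genes next to the members were also examined, and nothing is read from the small number called. The 2 nearest measured protein-coding genes on each side of the 5 loci gave 20 genes, of which 1 was called higher and 1 lower between the R406 and curdlan arrays (limma adjusted p under 0.05; 4.02% and 3.23% of all probe sets). The higher one was Prr11 near Ypel2, at 0.47 ± 0.0448, and the lower one Zdhhc5, an acyltransferase gene near Ypel4, at -0.25 ± 0.0427. Zdhhc5 was not called without each of the 6 arrays in turn (limma adjusted p between 0.07 and 0.205), nor Prr11 without curdlan replicate 1 or either R406 plus curdlan array (0.0564 to 0.0836). Beside Ypel3, the transcription factor gene Tbx6 had a difference of 0.05 ± 0.128 and the phosphatase gene Ppp4c one of 0.00 ± 0.0555. Beside Ypel5, Lbh had a difference of -0.23 ± 0.0593 and the receptor kinase gene Alk one of -0.07 ± 0.0908. Over the 20 genes the median difference was 0.02.

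**Figure D3:**
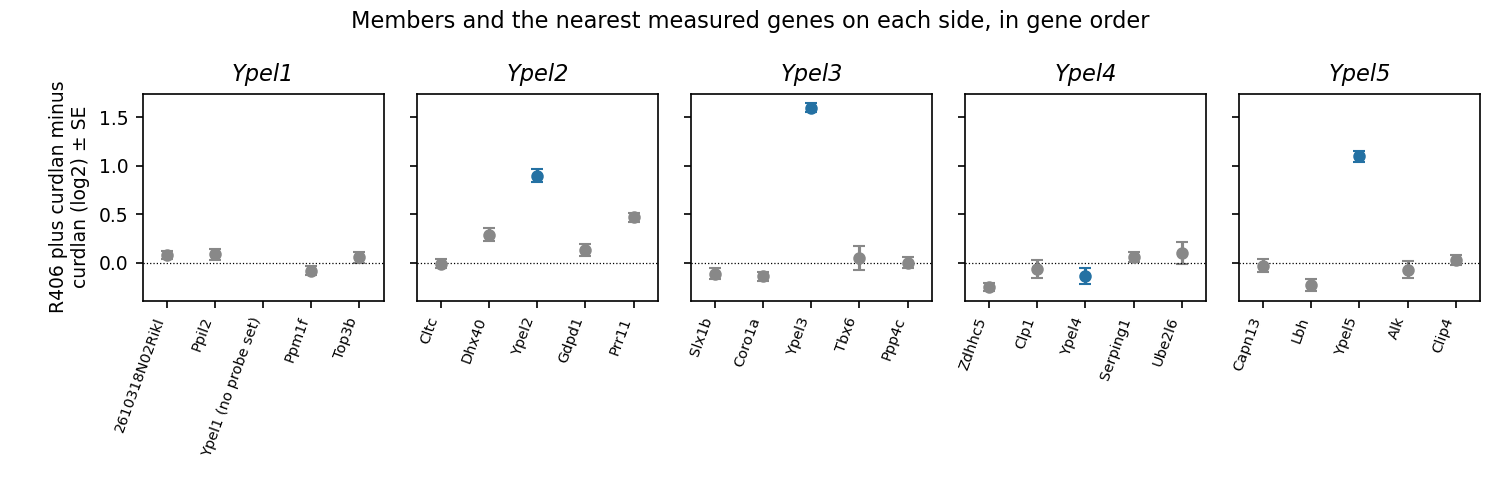
Difference between R406 plus curdlan and curdlan arrays (log2, vertical axis, ± 1 SE) for each member and the nearest 2 measured genes on each side, placed in gene order and not to distance; Ypel1 had no probe set. Ypel2, Ypel3 and Ypel5 lie at 0.90, 1.60 and 1.10, and their neighbours between -0.23 and 0.47.

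The other proteins that carry a Yippee-like fold were compared next. Crbn, which encodes cereblon, a substrate receptor of a ubiquitin ligase, and Oip5, which encodes a subunit of the MIS18 complex that prepares centromeres, were measured, and Mis18a was not. Crbn rose between the curdlan and R406 arrays by 0.37 ± 0.044 (limma, Benjamini-Hochberg adjusted p = 0.0138) and Oip5 by 0.62 ± 0.0547 (adjusted p = 0.00651). Against control, Oip5 rose by 0.46 ± 0.0547 (limma adjusted p = 0.0292) and Crbn had a difference of 0.28 ± 0.044. With curdlan alone the differences were -0.09 ± 0.044 for Crbn and -0.16 ± 0.0547 for Oip5, and neither passed. Without R406 plus curdlan replicate 1, neither passed against curdlan (limma adjusted p = 0.11 for Crbn and 0.061 for Oip5). Crbn also missed without R406 plus curdlan replicate 2 (limma adjusted p = 0.119), curdlan replicate 1 (0.071) and curdlan replicate 2 (0.0741), at differences of 0.35 to 0.38. The call of Oip5 against control was lost without each array in turn, at limma adjusted p between 0.0719 and 0.176.

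The CTLH complex, the ubiquitin ligase that holds YPEL5 in human cells, was measured beside Ypel5. Of 11 listed subunits and partners 8 were measured, and 0 were called in any of the 3 comparisons by limma, with 2, 3 and 3 at an unadjusted p under 0.05 for curdlan against control, R406 against curdlan and R406 against control. Over all probe sets 1.59%, 7.25% and 2.23% were called in these comparisons, and 14.4% had an unadjusted p under 0.05 for curdlan against control. The unadjusted share was not counted for the R406 comparisons, so those counts have no like share beside them. With an intensity trend in the variance prior the counts were 1, 1 and 2, all higher, beside 5.33%, 12.9% and 8.01% of all probe sets. With 8 genes, nothing is read from these counts. The R406 differences from curdlan ran from -0.07 for Wdr26, a scaffold subunit, to 0.27 ± 0.0618 for Rmnd5b, a RING subunit, with a median of 0.02. Maea and Gid8, further subunits, had differences of 0.01 and 0.03. The difference of Ypel5 in the same comparison was 1.10.

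Genes of growth arrest and quiescence, the process Ypel3 is linked to in human cells, were called in both directions. Between the R406 and curdlan arrays 9 of 21 measured genes rose and 3 fell, or 57.1% beside 7.25% of all probe sets, and the list median was 0.08. This list and those of p53 targets and proliferation below were chosen with earlier results of these arrays known. Nothing is read from their shares, and their p-values are a description only. Fewer of all probe sets, too, were called in fits without 1 array, and nothing is read from lower list counts there. The median signals of these lists, 9.74, 9.35 and 11.73, lay above the array medians, and the part of signal level was not tested. Ccng2, an unconventional cyclin linked to cell cycle exit, rose by 2.42 ± 0.0675 (limma adjusted p = 0.000346), Txnip, which encodes a thioredoxin inhibitor, by 2.15 ± 0.0538 (adjusted p = 0.000261), and the repressor gene Hbp1 by 1.44 ± 0.0609 (adjusted p = 0.00111). Pdcd4, which encodes a translation inhibitor, rose by 0.94 ± 0.103 (limma adjusted p = 0.0109). The genes that fell were Cdkn1a, Btg3 and Tob2, which encode the p21 inhibitor and antiproliferative BTG/TOB proteins. Under curdlan alone Ccng2 fell by 1.89 ± 0.0675 (limma adjusted p = 0.00165), as did Klf6 by 0.63 ± 0.0735 and Btg1 by 0.47 ± 0.0544 (both adjusted p = 0.0339), with 3 of 21 lower and 0 higher. Against control 5 rose and 1 fell under R406, or 28.6% beside 2.23% of all probe sets. In fits without 1 array the total called against curdlan was between 3, without R406 plus curdlan replicate 1, and 12, with 4 without R406 plus curdlan replicate 2, 6 without curdlan replicate 1 and 7 without curdlan replicate 2. Under curdlan it was 1 in each such fit, and against control 1 or 2.

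Ypel3 is a p53 target in human cells, and other p53 targets were called in both directions. Of 20 measured, 3 rose and 5 fell between the R406 and curdlan arrays, or 40.0% beside 7.25% of all probe sets, with a median of -0.01. The limits given above for the choice and signal of this list hold here. Plk3, which encodes a stress-responsive polo-like kinase, fell by 3.31 ± 0.0438 (limma adjusted p = 6.09e-05), Gadd45a by 1.25 ± 0.0487 (adjusted p = 0.000829) and Cdkn1a by 0.74 ± 0.0697 (adjusted p = 0.00754). Tigar, which encodes a fructose bisphosphatase, fell by 0.66 ± 0.0546 (limma adjusted p = 0.00568). Mdm2 and Bax, classical targets, had differences of -0.16 and 0.02 that did not pass. Plk3 and Tp53inp1 were higher with curdlan, by 1.02 ± 0.0438 and 0.45 ± 0.0488 (limma adjusted p = 0.00248 and 0.0294). Against control 1 of the 20 rose and 4 fell under R406, beside 2.23% of all probe sets called in either direction. The 3 rises against curdlan were lost in fits without 1 array, except 1 without curdlan replicate 2, and 2 to 5 falls were called; under curdlan 1 call was kept in each, and against control 1 to 3 were called.

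Cell growth itself was not analysed here. Of 28 measured genes of proliferation, 3 rose and 2 fell between the R406 and curdlan arrays, or 17.9% beside 7.25% of all probe sets, with a median of 0.03. This list was bright, with a median signal of 11.73, and was chosen with earlier results known, so nothing is read from its share. The falls were the growth-promoting genes Myc, by 3.93 ± 0.0807 (limma adjusted p = 0.000112), and Ccnd1, which encodes cyclin D1, by 1.11 ± 0.0789 (adjusted p = 0.00389). The rises were the mitotic genes Aurka by 0.51 ± 0.0569, Bub1b by 0.35 ± 0.0486 and Plk1 by 0.31 ± 0.0551 (limma adjusted p between 0.0111 and 0.0384). The replication genes Pcna and Mcm2 had differences of 0.02 and 0.01. With curdlan 1 gene, Ccne2, rose by 0.43 ± 0.048 (limma adjusted p = 0.0305), and against control 2 rose and 2 fell under R406, or 14.3% beside 2.23% of all probe sets. In fits without 1 array, Myc and Ccnd1 remained called against curdlan in all 6, with 0 or 1 rises, Ccne2 was called in 0, and 1 or 2 genes were called against control. Other settings gave more calls: between the R406 and curdlan arrays 8 genes were higher and 6 lower among probe sets above the median signal, and 10 and 6 with an intensity trend, where 25.4% and 12.9% of all probe sets were called.

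**Figure D4:**
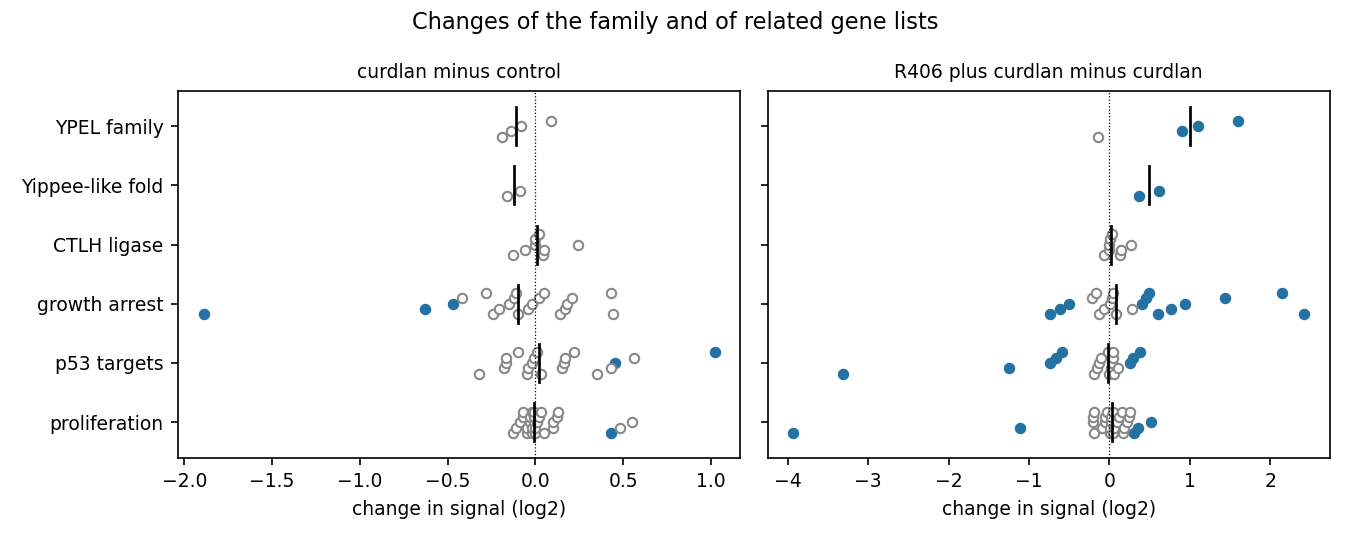
Differences of group means (log2, horizontal axis) for the measured genes of 6 lists, curdlan minus control at left and R406 plus curdlan minus curdlan at right, each panel on its own scale. Filled points passed the limma test, open points did not, vertical bars are list medians, and vertical offsets within a list carry no meaning; at right the family median is 0.999 and that of the CTLH list 0.02.

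Genes whose profile over the 6 arrays was most like that of a member were found by Euclidean distance between profiles centred on their own means, over all named genes. For Ypel3 the nearest were Cx3cr1, a chemokine receptor gene, at a distance of 0.287 log2 units, then Tcp11l2 at 0.311, Klhl24, which encodes a ubiquitin ligase adaptor, at 0.334, Fbxl20, an F-box gene, at 0.363, and Cd7, a surface receptor gene, at 0.504. Ypel2 had closer companions: Pcmtd2 at 0.063, Ccpg1, an autophagy receptor gene of the endoplasmic reticulum, at 0.114, the splicing kinase gene Clk1 at 0.146, the Argonaute gene Ago4 at 0.147, and Mxd1, which encodes an antagonist of MYC, at 0.158. For Ypel5 they were Arhgef39 at 0.130, Ccdc28a at 0.177, the ubiquitin ligase gene Rnf103 at 0.178, the adenosine receptor gene Adora2b at 0.180 and Kctd11 at 0.187. The 6 arrays hold 3 conditions, so likeness here means mainly a like difference between 3 group means. The R406 differences from curdlan of these 15 genes ran from 0.85 for Clk1 to 1.63 for Tcp11l2. Ypel4 had group means within 0.5 of one another and was not searched.

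**Figure D5:**
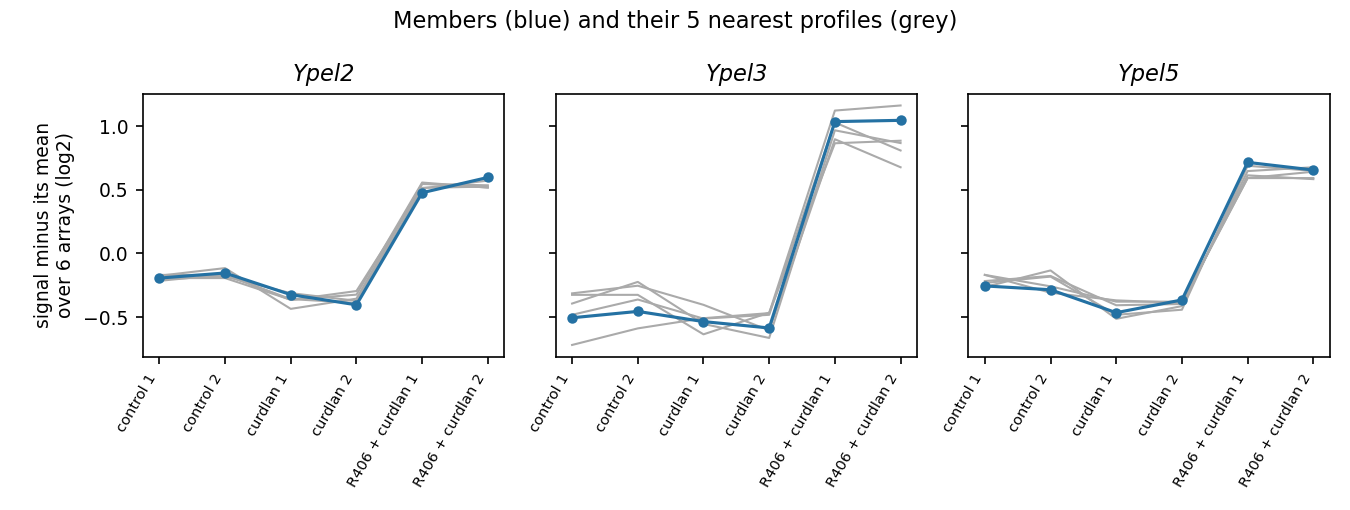
Signal minus its own mean over the 6 arrays (log2, vertical axis) on each array (horizontal axis) for Ypel2, Ypel3 and Ypel5 in blue and the 5 genes with the nearest profile in grey; lines join arrays only to guide the eye. The spread of the grey lines is widest for Ypel3, whose nearest genes lie at distances of 0.287 to 0.504.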

How the data were processed

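Biotin-labelled cDNA was hybridised to rat Affymetrix whole-transcript arrays (per the labels' protocols). Each deposited value is a log2 signal of 1 probe set on 1 array, and the submitters' processing notes name Affymetrix Expression Console as the authors' program; its version, its normalization and the build were not given in the sources used here, and the log2 base was inferred from array maxima of 14.37 to 14.41. Of 29214 probe sets, 15310 carried 1 gene symbol. The 6 arrays (2 per group) were fitted in 1 limma model (R 4.3.3, limma 3.58.1, lmFit and eBayes), with no filter and 3 residual degrees of freedom, and p-values were adjusted by Benjamini-Hochberg over all probe sets, with calls under 0.05. The fit was tested on simulated data. Arrays have no read depth, and their number limits the precision.

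A gene with several probe sets was represented by the one with the highest mean signal. Named genes are every member, up to 4 called genes with the largest difference per list and comparison, the genes with a Yippee-like fold, 2 measured neighbours per side, and the 5 nearest profiles of members whose group means span at least 0.5. Genes named outside this rule (subunits of the CTLH complex, Mdm2, Bax, Tob2, Btg3, Plk1, Pcna, Mcm2 and marker genes) were picked after their values were seen. Members and lists were chosen with earlier results of these data known. Promoters and positions came from RefSeq (GRCr8), where all 5 members matched; no protein sequence was used. Alternatives were quantile normalization, median centring, a signal filter, 4-array fits, an intensity trend, the replicate number as a block, and leaving out each array.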

Additional observations from a re-analysis of the deposited data

How the results depend on the processing

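The difference of each member kept its direction in all fits run except that of Ypel4 between the R406 and control arrays, which was 0.0345 without R406 plus curdlan replicate 2, and between -0.1313 and 0.0345 over the 6 fits that left out 1 array. Of 144 member values under other settings, 134 kept direction and side of the threshold and 9 lost a call, all against control and all of Ypel2 or Ypel5. In fits without 1 array the members called numbered 0 with curdlan, 3 for R406 against curdlan, and 1 to 3 for R406 against control; the R406 values were known when the family was chosen. The number of probe sets called for curdlan, R406 against curdlan and R406 against control was 1572, 3717 and 2278 above the median signal; 1557, 3767 and 2341 with an intensity trend; and 68, 1232 and 182 in fits of 4 arrays. With 1 array left out it was 32 to 68, 210 to 1232 and 15 to 182, in fits with fewer arrays. With the replicate block it was 102, 1129 and 62. Under the block 0, 3 and 2 members were called, the last without Ypel2. Same-numbered arrays deviated with correlations between -0.115 and 0.113, so the numbers were not taken to pair the arrays. Above the median signal and with an intensity trend, the genes called against control under R406 numbered 12 and 12 for growth arrest, 9 and 9 for p53 targets, and 10 and 12 for proliferation, and with curdlan 10 and 8, 8 and 7, and 3 and 4. Of all probe sets tested, these settings called 15.6% and 8.01% against control under R406, and 10.8% and 5.33% with curdlan. The filter left 16 of 21 growth arrest genes, 17 of 20 p53 targets and all 28 proliferation genes. In fits of 4 arrays, 5 p53 targets and 3 proliferation genes were called for R406 against curdlan, beside 4.22% of all probe sets. The cause of the other shifts was not tested. Of 504 values of other named genes, 350 kept direction and side of the threshold, 150 lost a call and 4 gained one. Background signal was not used, so differences of dim probe sets may be understated.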
